A study of Mus musculus with 12 samples.

Results

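The genes described here are 10 transcription regulators of blood cells, chosen by name from the 24028 genes counted in each table: the Id genes Id1, Id2 and Id3, the E protein genes Tcf3, Tcf4 and Tcf12, the stem cell leukemia (Scl) family genes Tal1 and Lyl1, their partner gene Lmo2, and Mef2c. All 10 were found in both count tables by NCBI gene ID. RNA was sequenced from bone marrow of C57BL/6 mice in 12 libraries, 3 per group. The iMLL-ENL total group held leukemic cells of whole marrow, and the B220 HIGH and B220 LOW groups held leukemic cells sorted by their level of B220, a CD45 isoform of B cells and some dendritic cells. All of these came from knock-in mice in which doxycycline switches on MLL-ENL, a leukemia fusion protein, and the drug was given until acute leukemia developed. The wt LSK group came from wild type control mice and held lineage-depleted marrow cells sorted for c-Kit and Sca-1, which are stem cells and early progenitors. The labels used here give neither the ages, nor the driver of the knock-in, nor whether control mice had the drug. No normal cells other than LSK were sequenced, so leukemia, genotype, drug and sort cannot be told apart in iMLL-ENL total against wt LSK. The labels name 3 animals per genotype and tie no library to an animal, so the p-values given here reflect only library-to-library spread, which may be technical.

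E proteins are basic helix-loop-helix factors that pair with each other or with tissue factors and bind DNA at E-boxes, the motif CANNTG. Id proteins carry the helix-loop-helix without the basic part, so they pair with E proteins and keep them off DNA. TAL1 and LYL1 are related factors that bind DNA as partners of E proteins, and LMO2 bridges such pairs to GATA factors through LDB1 in stem, red and platelet precursor cells. E proteins are needed for the B, T and plasmacytoid dendritic lineages, ID2 for natural killer, innate lymphoid and some dendritic cells, and MEF2C acts in lymphoid and myeloid progenitors and in some MLL-fusion leukemias.

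Library totals ran from 18001563 to 22706882 counts in iMLL-ENL total, 18227843 to 19607722 in wt LSK, 10921521 to 20069503 in B220 HIGH and 13441696 to 16626820 in B220 LOW. Levels below are CPM, counts scaled to the library total, and levels of different genes are compared only in CPM per kilobase of the deposited gene width. The 8 stem cell and LSK markers summed to 91.6 to 156 CPM in iMLL-ENL total and 2276 to 2914 CPM in wt LSK. Several libraries stood apart from their groups. wt LSK replicate 2 had 206 CPM over 8 B cell markers, against 42.7 and 45.4 CPM in the other wt LSK libraries. B220 HIGH replicate 2 had 331 CPM over the LSK markers, against 28.9 and 69.0 CPM in the other B220 HIGH libraries. Of the 331 CPM, 285 CPM came from Ly6a alone. Over 6 mast cell and basophil markers B220 HIGH replicate 2 had 62.5 CPM, against 905 and 911 CPM in the other B220 HIGH libraries. Over 9 neutrophil markers, none at 0 counts, the sums were 1070, 9540 and 10750 CPM in iMLL-ENL total and 23.4, 149 and 27.8 CPM in wt LSK, and 188, 15244 and 4725 CPM in B220 HIGH and 753, 1914 and 3526 CPM in B220 LOW. Neutrophil marker RNA thus moved with the differences between iMLL-ENL total and wt LSK given below, and its part in them was not tested. Ptprc, which encodes CD45, had 534, 600 and 553 CPM in B220 HIGH and 610, 241 and 431 CPM in B220 LOW, and counts per gene do not show the B220 isoform.

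The first comparison set the leukemic marrow against the normal stem and progenitor compartment. Id1, Id2 and Lyl1 rose in iMLL-ENL total, Tal1, Lmo2 and Tcf12 fell, and Tcf3, Tcf4 and Mef2c did not pass the test. These are 6 of 9 members tested (3 higher, 3 lower), where edgeR called 30.6% of all 13811 genes tested at an adjusted p under 0.05 (15.5% higher, 15.1% lower). Id3 lay under the filter on low counts and was not tested. The 10 members were separated by group without exception, with all 3 leukemic libraries above (3 members) or below (7 members) all 3 wt LSK libraries, which also held for 48.5% of the genes tested (19.0% above, 29.5% below). DESeq2 called 9 of 10 members, adding Id3, Tcf3 and Mef2c as lower, and 34.2% of its genes. In bulk samples fewer cells of a type and less RNA per cell cannot be told apart, and that holds for every difference below.

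**Figure D1:**
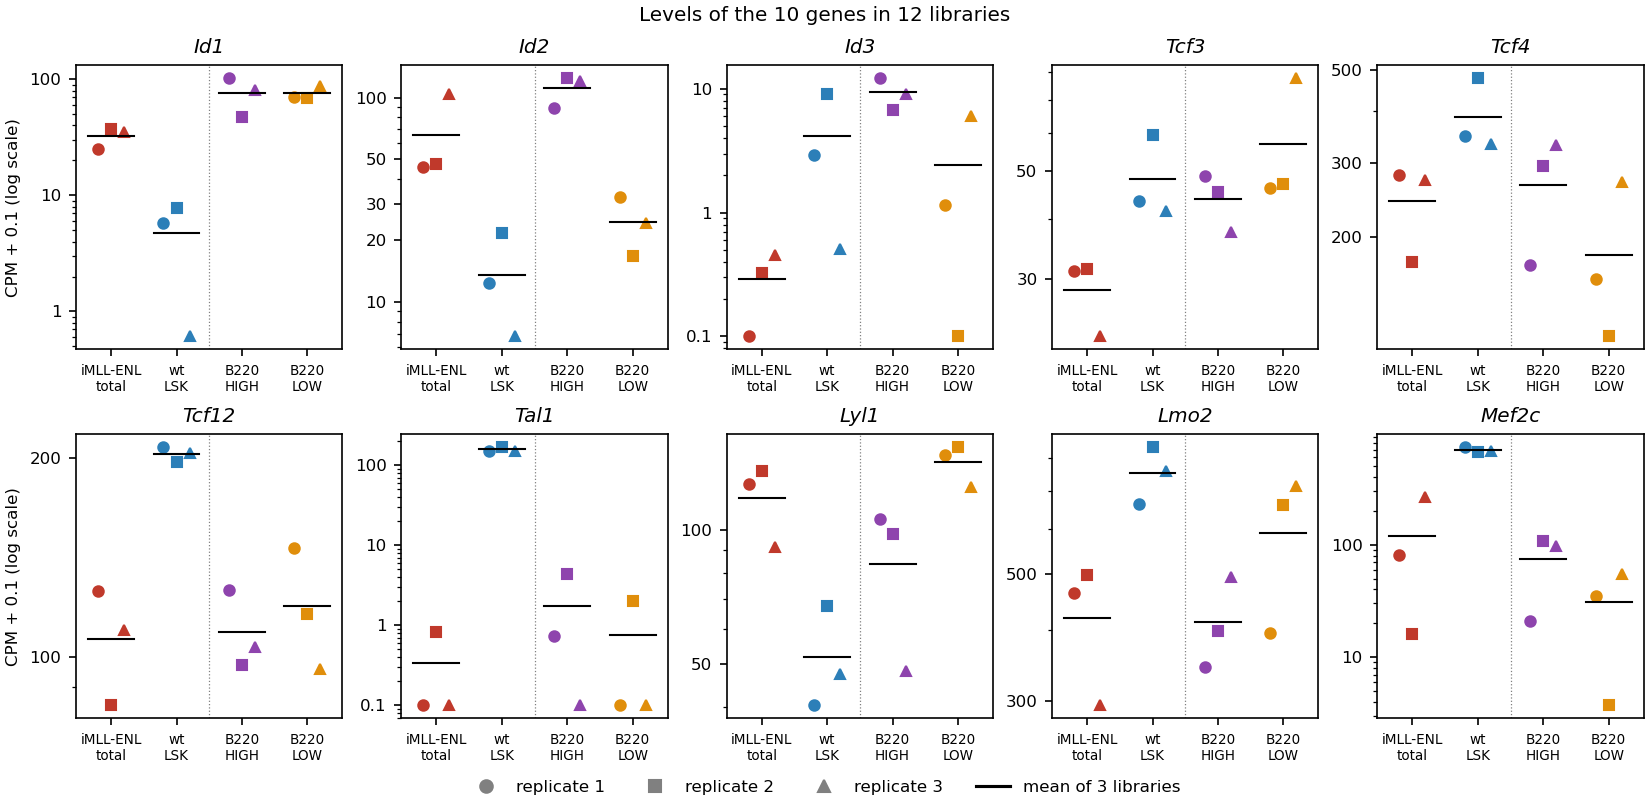
CPM + 0.1 on a log scale for the 10 genes in each library of iMLL-ENL total, wt LSK, B220 HIGH and B220 LOW, with a line at the mean of 3 libraries; the dotted line parts the 2 count tables. Tal1 stands at 151 to 169 CPM in wt LSK and at most 4.29 CPM in every leukemic library, while Id1 is at least 25.1 CPM in every leukemic library and at most 7.68 CPM in wt LSK.

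Id1 (NCBI gene 15901, chromosome 2, 152736251 to 152737410, GRCm38) had 25.1, 37.1 and 35.3 CPM in iMLL-ENL total, against 5.64, 7.68 and 0.510 CPM in wt LSK. The leukemic libraries were alike, and wt LSK replicate 3, with 10 counts, was far under the other wt LSK libraries. The log2 rise of Id1 was 2.98 (SE 0.77, edgeR adjusted p = 0.0207), a call lost without iMLL-ENL total replicate 2 or 3 (adjusted p = 0.064 and 0.0503), without wt LSK replicate 1 (0.0657) and when tested for a change beyond 2-fold (0.0586). Without wt LSK replicate 3 the rise was 2.44 (adjusted p = 0.00525).

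Id2 (NCBI gene 15902, chromosome 12, 25093799 to 25096092) had 45.5, 47.4 and 104 CPM in iMLL-ENL total, against 12.3, 21.6 and 6.68 CPM in wt LSK. The groups did not overlap, and iMLL-ENL total replicate 3 was highest. Id2 rose by 2.46 (SE 0.50, edgeR adjusted p = 0.00671) and was called in all 6 fits that left out 1 library and when tested for a change beyond 2-fold (adjusted p = 0.028). The same iMLL-ENL total replicate 3 had the highest sum over 9 monocyte and macrophage markers. That sum was 3664, 4196 and 11760 CPM in replicates 1, 2 and 3 of iMLL-ENL total, against 244, 601 and 286 CPM in wt LSK, and its part in the Id2 result was not tested. None of the 9 markers was at 0 counts in either group. Without that library the Id2 change was 1.87 (adjusted p = 0.0195).

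Id3 (NCBI gene 15903, chromosome 4, 136143822 to 136145392) ran the other way from Id1 and Id2, at very low levels. It had 0, 0.222 and 0.352 CPM in iMLL-ENL total, or 12 counts in all, and 2.79, 9.05 and 0.408 CPM in wt LSK, or 225 counts in all. The lowest wt LSK library stood only just above the highest iMLL-ENL total library. With no filter on low counts its log2 change was -4.20 (edgeR adjusted p = 0.0412), and in the 4 fits without 1 library that could include it the adjusted p ran from 0.0319 to 0.102. Of the wt LSK libraries, replicate 2 had the most Id1, Id2 and Id3. It also had the most B cell (206 CPM), T cell (58.6 CPM), natural killer (154 CPM) and plasmacytoid dendritic cell (190 CPM) marker RNA. The same held for neutrophil (149 CPM) and monocyte and macrophage (601 CPM) markers, but not for erythroid, megakaryocyte or LSK markers. The part of those cells was not tested. Per kilobase, Id2 made up 57.1, 48.2 and 68.2% of the summed Id level in iMLL-ENL total and 51.9, 48.9 and 84.4% in wt LSK. Id3 made up at most 0.308% of it in iMLL-ENL total, against 15.7, 27.4 and 6.88% in wt LSK.

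The 3 E protein genes were lower in every iMLL-ENL total library than in every wt LSK library, by much less than Tal1. Tcf12, which encodes HEB (NCBI gene 21406, chromosome 9, 71844252 to 72111893), had 126, 84.5 and 110 CPM in iMLL-ENL total, against 208, 197 and 204 CPM in wt LSK. The wt LSK libraries were nearly equal, and none overlapped a leukemic library. Tcf12 fell by 0.78 (SE 0.20, edgeR adjusted p = 0.018), a call that leaving out wt LSK replicate 1 (0.0653) or 3 (0.0714) ended, as did testing for a change beyond 2-fold. Tcf3, which encodes the E2A proteins E12 and E47 (NCBI gene 21423, chromosome 10, 80409541 to 80433976), had 31.0, 31.4 and 22.8 CPM in iMLL-ENL total, against 43.5, 59.4 and 41.3 CPM in wt LSK. Its log2 change was -0.60 (SE 0.23, edgeR adjusted p = 0.0867). Tcf4, which encodes E2-2, the factor of plasmacytoid dendritic cells (NCBI gene 21413, chromosome 18, 69343429 to 69687967), had 282, 175 and 274 CPM in iMLL-ENL total, against 349, 479 and 334 CPM in wt LSK. Its log2 change was -0.51 (SE 0.24, edgeR adjusted p = 0.141). The median log2 change over all genes tested was 0.05, and -0.10 when counts were scaled by library totals only, so changes of this size are to be read against a shift of that order.

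The balance between the families moved because the Id side was higher and the E side lower. Summed over Tcf3, Tcf4 and Tcf12, the E protein level was 57.6, 40.0 and 52.2 CPM per kilobase in iMLL-ENL total and 79.9, 97.5 and 77.0 CPM per kilobase in wt LSK. Summed over Id1, Id2 and Id3, the Id level was 62.6, 77.2 and 120 CPM per kilobase in iMLL-ENL total and 18.6, 34.7 and 6.23 CPM per kilobase in wt LSK. Per kilobase, Id transcripts thus exceeded E protein transcripts in every iMLL-ENL total library, and the reverse held in every wt LSK library. Without division by width E protein exceeded Id transcripts in every library, with ratios of 6.22, 3.43 and 2.90 in iMLL-ENL total and 28.9, 19.2 and 76.2 in wt LSK, so the side of 1 rests on the widths. Per kilobase, the ratio of summed E protein to summed Id level was 0.920, 0.519 and 0.435 in iMLL-ENL total and 4.28, 2.81 and 12.4 in wt LSK. It was 0.262, 0.382 and 0.324 in B220 HIGH and 0.496, 0.482 and 0.551 in B220 LOW, with no overlap between the sorted groups. The widths used here are the deposited ones, and no test was made of a score over chosen genes. Of the summed E protein level per kilobase, Tcf4 gave 55.1, 49.1 and 59.0% in iMLL-ENL total and 49.2, 55.3 and 48.8% in wt LSK, and 38.3, 56.0 and 60.2% in B220 HIGH and 35.2, 31.0 and 46.5% in B220 LOW. Tcf3 gave 15.2, 22.1 and 12.3% in iMLL-ENL total and 15.3, 17.2 and 15.1% in wt LSK, and 27.3, 21.6 and 17.0% in B220 HIGH and 25.6, 31.5 and 33.5% in B220 LOW.

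**Figure D2:**
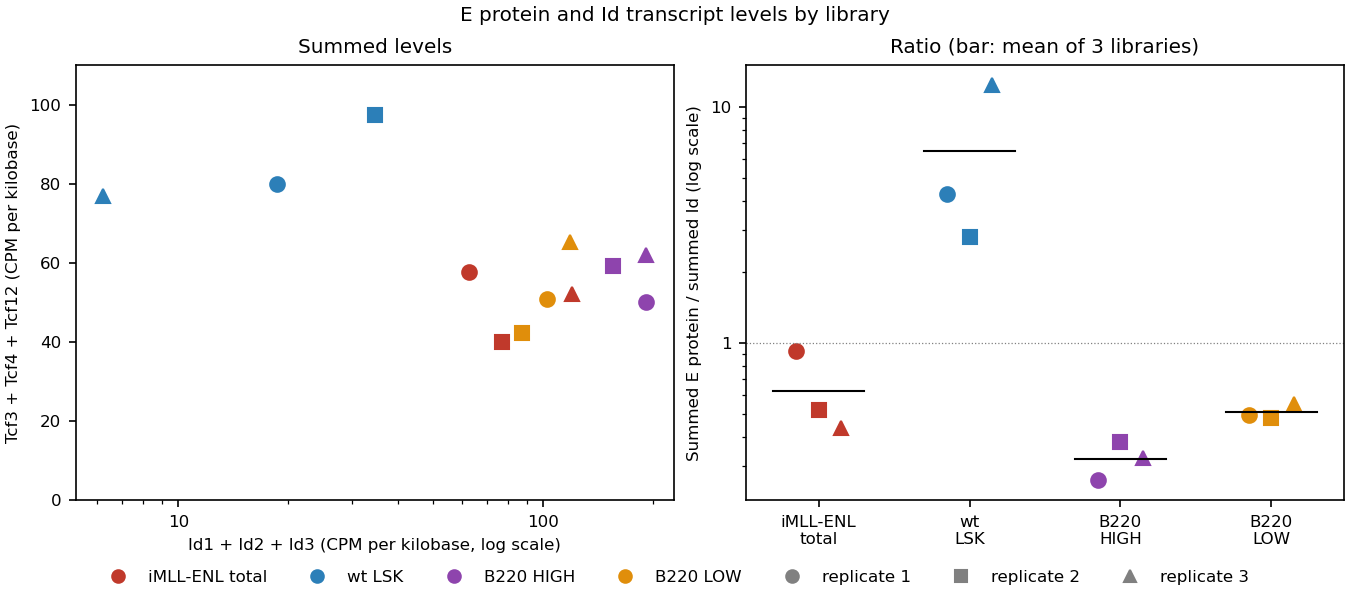
Left, summed level of Tcf3, Tcf4 and Tcf12 against that of Id1, Id2 and Id3 (CPM per kilobase; the x axis is logarithmic), 1 point per library, coloured by group and shaped by replicate number. Right, the ratio of the sums on a log scale with a bar at the mean of 3 libraries: per kilobase all 9 leukemic libraries lie under 1 and the 3 wt LSK libraries between 2.81 and 12.4, while without division by width every library lies above 1.

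The related genes Tal1 and Lyl1 changed in opposite directions. Tal1, which encodes SCL (NCBI gene 21349, chromosome 4, 115056426 to 115071755), had 0, 0.722 and 0 CPM in iMLL-ENL total, against 151, 169 and 153 CPM in wt LSK. All 13 iMLL-ENL total counts came from replicate 2, against 8906 counts over wt LSK. Tal1 fell by 9.32 (SE 0.94, edgeR adjusted p = 0.000341). Over the pooled counts of all libraries Tal1 was 756-fold lower. Without iMLL-ENL total replicate 2, the only leukemic library of this comparison with Tal1 counts, the leukemic count was 0. Tal1 was then at least 2329-fold lower, taking a floor of 3 counts over the group. Floors and counting intervals cover counting error only.

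Lyl1 (NCBI gene 17095, chromosome 8, 84701423 to 84704716) had 127, 136 and 91.6 CPM in iMLL-ENL total, against 40.3, 67.5 and 47.5 CPM in wt LSK. Every iMLL-ENL total library was above every wt LSK library. Lyl1 rose by 1.35 (SE 0.24, edgeR adjusted p = 0.00354) and was called in all 6 fits without 1 library (adjusted p 0.00428 to 0.028), but not when tested for a change beyond 2-fold (0.137). Per kilobase, the level of Lyl1 was 70.5, 75.3 and 50.8 in iMLL-ENL total and 22.4, 37.5 and 26.4 in wt LSK, and that of Tal1 was at most 0.169 in iMLL-ENL total and 35.3, 39.5 and 35.7 in wt LSK. Per kilobase Tal1 was thus above Lyl1 in each wt LSK library, by little in replicate 2, and far below Lyl1 in each iMLL-ENL total library. Exons of Lyl1 share 4 bases with those of Nfix, and no other member shares exon bases with another annotated gene, which matters because the library kit does not keep strand.

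The 250 bases before the starts of Tal1, Lyl1 and Id2 are shown. Tal1 had the largest change among the members, and Lyl1 is its opposite. Id2 was called in the first comparison and was the member nearest to a call in the second. They are RefSeq sequences of GRCm38.p6, 5′ to 3′ on the strand of the gene, and capitals mark any match to the E-box CANNTG, the GATA motif GATAA and the ETS core CGGAAG, on both strands. The windows are chr4:115056176-115056425 (plus strand) for the first of 2 Tal1 starts, chr8:84701207-84701456 (plus strand) for Lyl1 and chr12:25096093-25096342 (minus strand) for Id2.
Tal1: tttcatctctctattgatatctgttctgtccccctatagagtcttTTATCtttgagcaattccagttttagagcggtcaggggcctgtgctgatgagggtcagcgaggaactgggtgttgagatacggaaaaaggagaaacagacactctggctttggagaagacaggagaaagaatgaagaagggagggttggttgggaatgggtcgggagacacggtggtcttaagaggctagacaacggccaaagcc
Lyl1: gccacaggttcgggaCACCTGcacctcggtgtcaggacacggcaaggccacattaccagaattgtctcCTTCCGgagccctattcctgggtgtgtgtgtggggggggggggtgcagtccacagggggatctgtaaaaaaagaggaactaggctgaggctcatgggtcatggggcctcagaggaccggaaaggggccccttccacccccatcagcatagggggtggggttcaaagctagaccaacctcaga
Id2: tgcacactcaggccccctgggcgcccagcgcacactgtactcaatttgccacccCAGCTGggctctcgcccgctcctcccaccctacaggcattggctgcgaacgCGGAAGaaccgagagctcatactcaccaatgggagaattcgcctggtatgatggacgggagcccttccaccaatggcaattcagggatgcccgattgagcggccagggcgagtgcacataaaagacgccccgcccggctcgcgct
The Tal1 window held 1 GATAA and neither other motif, Lyl1 and Id2 each held 1 E-box and 1 CGGAAG, and the Id3 window held none of the 3 motifs. Over 32851 windows of the same length in the table, 66.2% held CANNTG, 22.6% GATAA and 13.6% CGGAAG. A match is a description of these letters and not a binding site.

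Lmo2, the bridging LIM-domain gene (NCBI gene 16909, chromosome 2, 103957903 to 103981878), had 464, 499 and 295 CPM in iMLL-ENL total, against 665, 836 and 758 CPM in wt LSK. It stayed the most abundant of the 10 genes per kilobase in every library, at 155 to 262 in iMLL-ENL total and 350 to 440 in wt LSK. Lmo2 fell by 0.69 (SE 0.22, edgeR adjusted p = 0.0419), a call lost in 5 of 6 fits without 1 library (adjusted p 0.0509 to 0.125). It was kept without iMLL-ENL total replicate 2 (0.026) and not called for a change beyond 2-fold.

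Mef2c (NCBI gene 17260, chromosome 13, 83504017 to 83667079) varied most between leukemic libraries. It had 80.8, 15.9 and 263 CPM in iMLL-ENL total, against 737, 665 and 677 CPM in wt LSK. Every leukemic library was below the lowest wt LSK library, yet the leukemic libraries spanned more than the fold between the group means. The log2 change was -2.36 (SE 0.83, edgeR adjusted p = 0.066). It passed without iMLL-ENL total replicate 2 (-1.83, adjusted p = 0.0396) or replicate 3 (-3.77, adjusted p = 0.0077).

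**Figure D3:**
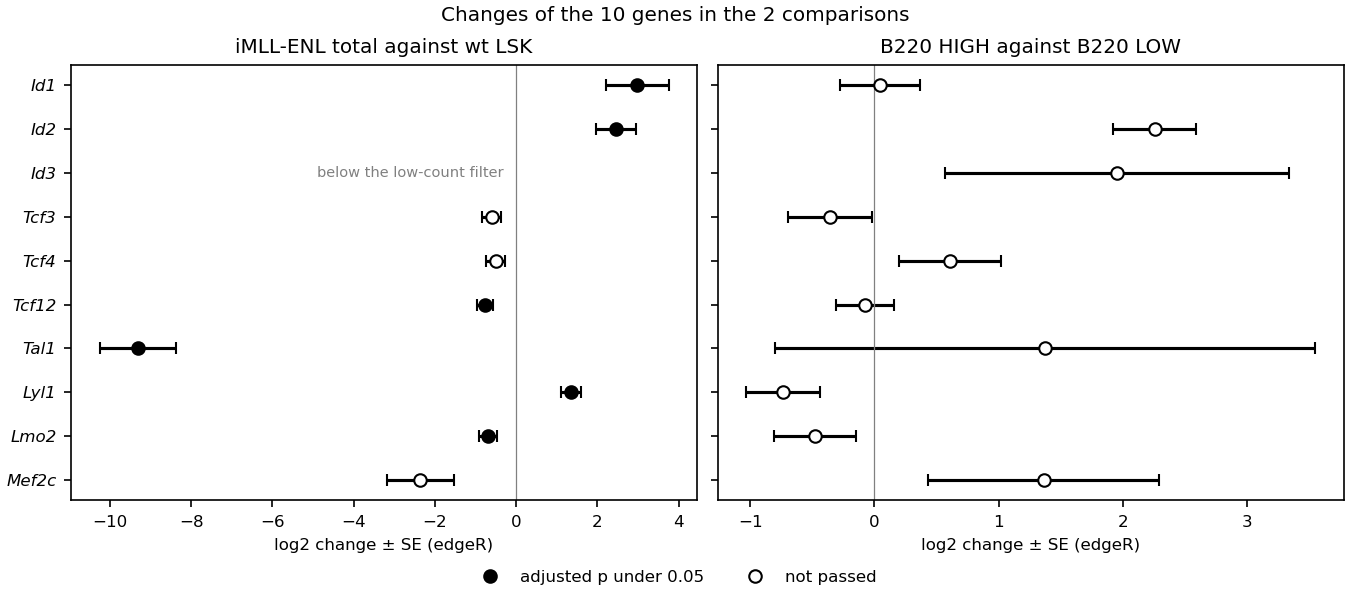
log2 change and SE of each member by edgeR, iMLL-ENL total against wt LSK on the left and B220 HIGH against B220 LOW on the right, with separate x axes; filled points have an adjusted p under 0.05. On the left Tal1 lies at -9.32 and Id1 at 2.98; on the right no member passes and Id2 lies highest at 2.26.

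Genes that work with these factors were read from 8 lists. Of 16 partners of the SCL complex and the stem cell heptad, 15 were tested, 9 fell and 1 rose. Of all genes tested, 15.1% fell and 15.5% rose. The median log2 change of the partners was -1.27, beside 0.05 over all genes. Gata1, the red cell and platelet GATA factor, had 0.0757 ± 0.0703 CPM in iMLL-ENL total and 7.88 ± 0.216 CPM in wt LSK (SD, n = 3 each). It fell by 6.39 (SE 0.76, edgeR adjusted p = 0.000573). Ssbp2, which stabilises LDB1, fell by 2.36 (SE 0.20, edgeR adjusted p = 0.000124), and 22.1% of its exon bases overlap the gene 4833422C13Rik. Erg, an ETS factor of stem cells, fell by 1.81 (SE 0.23, edgeR adjusted p = 0.000777). The heptad partner Fli1, named after its values were seen, did not pass, at 209 ± 31.1 CPM in iMLL-ENL total and 193 ± 17.0 CPM in wt LSK (SD, n = 3 each; edgeR adjusted p = 0.346). The gene that rose was Lmo4, a paralog of Lmo2 (log2 change 0.94, edgeR adjusted p = 0.0141).

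Of 16 targets of TAL1 and GATA1 in red cells and platelets, 15 were tested, 12 fell and none rose (median log2 change -3.81). Of all genes tested, 15.1% fell and 15.5% rose. Itga2b, the platelet integrin gene, fell by 4.63 (SE 0.62, edgeR adjusted p = 0.00102). Kit fell by 3.09 (SE 0.24, edgeR adjusted p = 8.59e-05), and c-Kit was part of the LSK sort. Over 6 megakaryocyte markers the summed level was 4.22 to 8.99 CPM in iMLL-ENL total and 72.8 to 103 CPM in wt LSK, and over 7 erythroid markers 2.33 to 9.31 CPM and 21.5 to 48.9 CPM in the same order. No marker of either list was at 0 counts in these groups, and the part of such cells in the falls of Tal1 and its targets was not tested. All of these markers but Ppbp, Vwf, Car1 and Hbb-bs are also among the listed targets, so the sums are not separate from them.

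Of 21 E protein targets of early lymphoid cells, 19 were tested, 11 fell and none rose (median log2 change -2.79), beside 15.1% and 15.5% of all genes. Flt3, a receptor gene of early progenitors, had 14.2 ± 10.7 CPM in iMLL-ENL total and 405 ± 76.0 CPM in wt LSK (SD, n = 3 each), and fell by 4.67 (SE 0.63, edgeR adjusted p = 0.00124). Foxo1, a factor of B cell development, fell by 1.74 (SE 0.25, edgeR adjusted p = 0.0013). B cell markers summed to 19.4, 36.2 and 23.4 CPM in iMLL-ENL total and 45.4, 206 and 42.7 CPM in wt LSK, and their part in these falls was not tested. All of these markers but Ms4a1 are also among the listed targets, so their sum is not separate from them.

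Of 17 genes of the TCF4 program of plasmacytoid dendritic cells, 13 were tested, 2 rose and 2 fell (median log2 change -0.77), a share called near the 30.6% of all genes. Bcl11a, a partner factor of TCF4, fell by 6.72 (SE 0.77, edgeR adjusted p = 0.000646), to 2.59, 11.7 and 1.67 CPM in iMLL-ENL total, against 563, 623 and 658 CPM in wt LSK. Zeb2, a TCF4-induced factor, rose by 0.92 (SE 0.19, edgeR adjusted p = 0.0067). Tlr9 had 19.2, 8.22 and 44.5 CPM in iMLL-ENL total, against 3.17, 10.3 and 2.70 CPM in wt LSK, groups that overlap (log2 change 2.35, edgeR adjusted p = 0.04). The 6 markers of plasmacytoid dendritic cells summed to 13.9, 37.3 and 14.3 CPM in iMLL-ENL total and 39.1, 190 and 33.7 CPM in wt LSK, highest in replicate 2 of each group. All 6 are also among the listed genes of the TCF4 program, so their sum is not separate from them.

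Of 15 factors and markers of ID2-dependent cells, 13 were tested, 1 rose and 5 fell (median log2 change -0.61). Of all genes tested, 15.5% rose and 15.1% fell. Id2 itself rose. Tox, a factor of innate and T lymphocytes, fell by 6.23 (SE 0.49, edgeR adjusted p = 8.43e-05), and Gata3 fell by 5.09 (SE 0.71, edgeR adjusted p = 0.00122). Zbtb46, a factor of conventional dendritic cells, had 2 counts in iMLL-ENL total and 116 in wt LSK, making it 64.0-fold lower (95% interval from counting error 17.3 to 535) (edgeR adjusted p = 0.00709). Nfil3, which acts upstream of ID2 in innate lymphocytes and was named after its values were seen, rose by 2.69 (edgeR adjusted p = 0.0176). Natural killer cell markers summed to 10.5, 22.1 and 6.69 CPM in iMLL-ENL total and 65.2, 154 and 74.8 CPM in wt LSK. Ncr1, Klrb1c and Eomes among them are also on the list of ID2-dependent cells.

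Bone morphogenetic protein (BMP) signals induce Id genes through SMAD factors. Of 25 genes of BMP and TGF-beta signalling 20 were tested, 2 rose and 5 fell (median log2 change -0.62), a share called near the 30.6% of all genes. Eng, which encodes the coreceptor endoglin, fell by 4.4 (SE 0.23, edgeR adjusted p = 1.43e-05), to 4.31 ± 0.397 CPM in iMLL-ENL total, against 102 ± 13.9 CPM in wt LSK (SD, n = 3 each). Smad3 fell by 2.24 (SE 0.21, edgeR adjusted p = 0.000191) and Smad5, a BMP-activated factor, by 0.80 (SE 0.17, edgeR adjusted p = 0.00794). Acvrl1, the gene of a BMP receptor that pairs with endoglin, was named after its values were seen and rose by 4.15 (SE 0.88, edgeR adjusted p = 0.00837), with a lowest, median and highest level of 2.41, 6.06 and 17.3 CPM in iMLL-ENL total, against 0.215, 0.494 and 0.918 CPM in wt LSK. Of 12 genes of the MEF2 family and its regulators, all were tested, 1 rose and 1 fell, beside 15.5% and 15.1% of all genes. Mapk7 rose (log2 change 1.17, edgeR adjusted p = 0.0404) and Hdac7 fell (-1.74, edgeR adjusted p = 0.00101). Mef2a had 215 ± 107 CPM in iMLL-ENL total and 222 ± 11.4 CPM in wt LSK (SD, n = 3 each; edgeR adjusted p = 0.815). Of 19 other helix-loop-helix genes 5 were tested, 1 rose and 1 fell, beside 15.5% and 15.1% of all genes. Ascl2 rose (log2 change 4.62, SE 0.94, edgeR adjusted p = 0.00691). Bhlhe41 fell (-2.81, SE 0.77, edgeR adjusted p = 0.0252), with 19.0% of its exon bases overlapping Gm43909. The calls of Mapk7, Tlr9 and Bhlhe41 were each lost in 8 of 13 fits with another setting or without 1 library. Exons of Foxo1 (7.78%), Gata3 (3.90% with Gm13256), Tox (3.42%), Zeb2 (3.27% with Zeb2os), Bcl11a, Eng, Hdac7, Mapk7 and Smad5 (at most 2.40%) also overlap other genes.

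**Figure D4:**
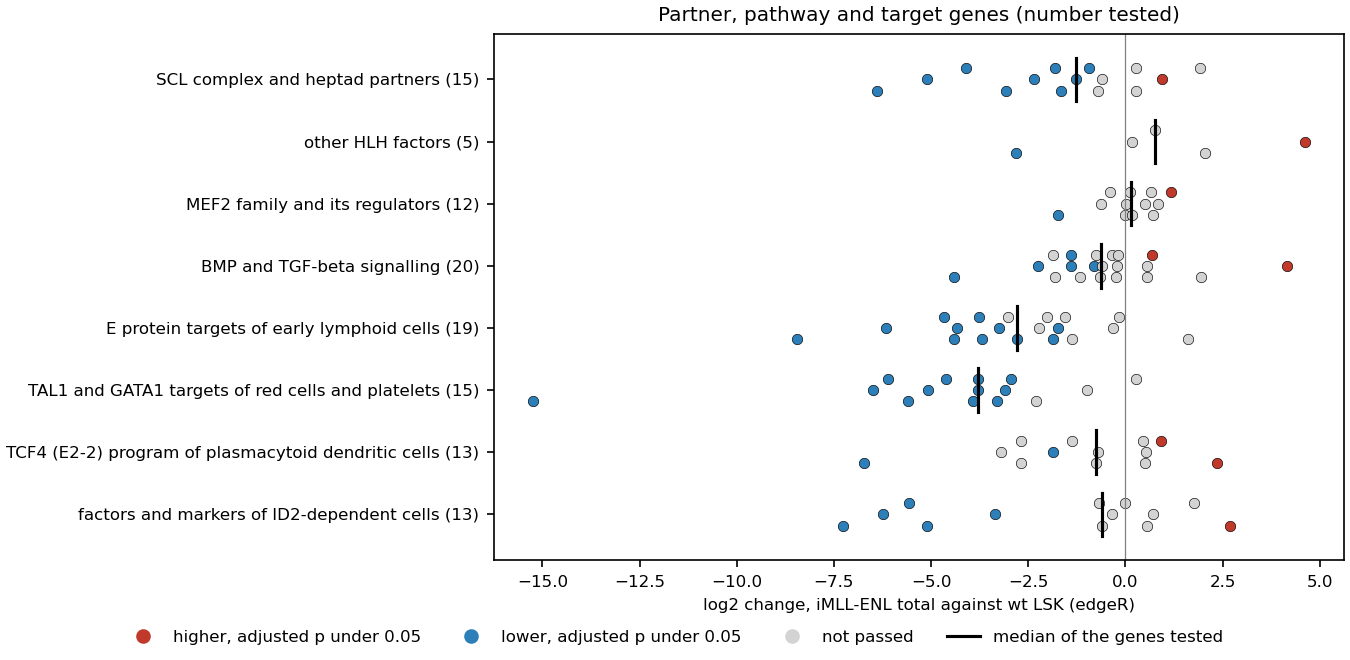
log2 change of each tested gene of 8 lists in iMLL-ENL total against wt LSK, coloured where the adjusted p is under 0.05, with a black bar at the median of the genes tested and their number in brackets. The medians of TAL1 and GATA1 targets (-3.81) and of early lymphoid E protein targets (-2.79) lie farthest below 0, beside 0.05 over all genes.

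The second comparison set B220 HIGH against B220 LOW leukemic cells. By edgeR 0 of 10 members were called, as were 0.0% of 12564 genes; 2 members, Id2 and Lyl1, had an unadjusted p under 0.05, beside 7.0% of all genes. DESeq2 called 1 member, Id2, as higher (adjusted p = 5.86e-07), where it called 2.13% of genes (1.94% higher), and limma-voom called 0 members and 0 genes. With the replicate number as a block, which the libraries' deviations pair in these groups, Id2 rose by 2.26 (SE 0.33, edgeR adjusted p = 0.0193), 1 of 10 members where 0.764% of genes were called (0.712% higher, 0.0519% lower). The libraries of the groups did not overlap for Id2 and Id3 (higher) and Lyl1 (lower), beside 13.4% of all genes (6.2% higher, 7.22% lower).

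Id2 had 88.6, 125 and 120 CPM in B220 HIGH and 32.7, 16.7 and 24.2 CPM in B220 LOW. Every B220 HIGH library was well above every B220 LOW library. The log2 change without the block was 2.26 (SE 0.34, edgeR adjusted p = 0.126), and without B220 HIGH replicate 2 it was 2.18 (adjusted p = 0.342). Monocyte and macrophage markers summed to 1036, 3026 and 5299 CPM in B220 HIGH and 670, 690 and 1113 CPM in B220 LOW. Mast cell and basophil markers summed to 905, 62.5 and 911 CPM in B220 HIGH, with Tpsb2 at 0 counts, and 17.0, 26.7 and 57.1 CPM in B220 LOW, with Prss34 and Tpsb2 at 0 counts. Megakaryocyte markers summed to 66.7, 23.7 and 32.1 CPM in B220 HIGH and 5.96, 5.06 and 2.29 CPM in B220 LOW, with none at 0 counts. The part of these 3 marker sets in the Id2 difference was not tested. Natural killer markers were near 0 in B220 LOW, at 0.120 to 1.57 CPM, with Gzma and Eomes at 0 counts, and at 0.354 to 16.0 CPM in B220 HIGH, with Gzma at 0 counts.

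Id3 had 12.1, 6.63 and 9.05 CPM in B220 HIGH and 1.05, 0 and 5.95 CPM in B220 LOW. B220 LOW replicate 3 came close to the lowest B220 HIGH library, and the log2 change was 1.96 with an SE of 1.39 (edgeR adjusted p = 0.868). Id1 had 102, 46.8 and 81.2 CPM in B220 HIGH and 70.7, 69.3 and 87.2 CPM in B220 LOW, overlapping groups with a log2 change of 0.04 (SE 0.32, edgeR adjusted p = 0.992). Per kilobase, Id1 made up 57.1, 32.4 and 45.5% of the summed Id level in B220 HIGH and 73.8, 84.9 and 78.7% in B220 LOW.

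Lyl1 had 106, 97.7 and 48.2 CPM in B220 HIGH and 147, 154 and 125 CPM in B220 LOW, with no overlap (log2 change -0.74, SE 0.30, edgeR adjusted p = 0.686). Lmo2 had 344, 398 and 494 CPM in B220 HIGH and 395, 662 and 716 CPM in B220 LOW (log2 change -0.48, SE 0.33, edgeR adjusted p = 0.865). Neither passed the test, and for Lmo2 the groups overlapped. Tal1 had 0.641, 4.29 and 0 CPM in B220 HIGH and 0, 1.93 and 0 CPM in B220 LOW. Its 93 and 26 counts came mostly from replicate 2 of each group, as did the 13 counts of iMLL-ENL total, and what a replicate number marks is not stated in the labels. Among the leukemic libraries, B220 HIGH replicate 2 had the most LSK marker RNA (331 CPM). Of that sum Ly6a alone gave 285 CPM and Kit 40.3 CPM.

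Among E protein genes, Tcf4 had 171, 295 and 331 CPM in B220 HIGH and 159, 116 and 270 CPM in B220 LOW. Within each replicate number B220 HIGH was above B220 LOW (log2 change 0.61, SE 0.41, edgeR adjusted p = 0.86, and 0.359 with the block). Tcf3 had 48.7, 45.3 and 37.4 CPM in B220 HIGH and 46.2, 47.0 and 77.6 CPM in B220 LOW (edgeR adjusted p = 0.901). Tcf12 had 126, 97.3 and 103 CPM in B220 HIGH and 146, 116 and 95.7 CPM in B220 LOW (edgeR adjusted p = 0.979). Mef2c had 20.9, 108 and 96.9 CPM in B220 HIGH and 35.2, 3.65 and 54.4 CPM in B220 LOW, with wide overlap (log2 change 1.36, SE 0.93, edgeR adjusted p = 0.865).

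Of the listed partner and target genes, none was called by edgeR in this comparison, as were 0.0% of all genes. With the block 4 were called, all higher in B220 HIGH, where 0.764% of all genes were called (0.712% higher, 0.0519% lower). They were Bcl11a and Siglech of the TCF4 program (2 of 12 tested), Nfil3 of ID2-dependent cells (1 of 8) and Bhlhe41 of other helix-loop-helix genes (1 of 7). All 4 were named after their values in this comparison were seen. DESeq2 called 7 listed genes, all higher in B220 HIGH, where it called 2.13% of all genes (1.94% higher, 0.19% lower). They were Gata2 (1 of 13 SCL partners tested), Bhlhe41 (1 of 7), and Acvrl1 and Tgfbr2 (2 of 20 BMP and TGF-beta genes). The others were Il7r (1 of 12 early lymphoid targets), Itga2b (1 of 11 TAL1 and GATA1 targets) and Tlr7 (1 of 11 of the TCF4 program). DESeq2 did not call Nfil3 (DESeq2 adjusted p = 0.2) and gave no p for Bcl11a or Siglech. Bcl11a had 4.67, 144 and 1.26 CPM in B220 HIGH and 0, 0.521 and 0.0601 CPM in B220 LOW (blocked edgeR adjusted p = 0.00385). Siglech, a lectin gene of plasmacytoid dendritic cells, had 0.458, 66.7 and 2.02 CPM in B220 HIGH and 1 count in all in B220 LOW (blocked edgeR adjusted p = 0.0385). Both were far highest in B220 HIGH replicate 2. The 6 plasmacytoid dendritic cell markers summed to 41.9, 241 and 71.1 CPM in B220 HIGH and 61.7, 65.1 and 56.7 CPM in B220 LOW, where Klk1 and Ly6d were at 0 counts. Bhlhe41 had 3.02, 18.6 and 116 CPM in B220 HIGH and 0.262, 0.670 and 4.51 CPM in B220 LOW (blocked edgeR adjusted p = 0.00444). Nfil3 had 208, 52.8 and 50.0 CPM in B220 HIGH and 63.5, 22.6 and 20.9 CPM in B220 LOW (blocked edgeR adjusted p = 0.0463). Gata2, a partner of TAL1, had 334, 29.3 and 389 CPM in B220 HIGH and 25.7, 17.9 and 72.3 CPM in B220 LOW (edgeR adjusted p = 0.614, DESeq2 0.032), high in the same B220 HIGH libraries as the mast cell and basophil markers.

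Across the 4 groups the members fell into unlike orders, described with no test because the 2 tables were scaled and filtered apart from each other. Id1 averaged 76.7 ± 27.9 CPM in B220 HIGH, 75.7 ± 9.96 CPM in B220 LOW, 32.5 ± 6.5 CPM in iMLL-ENL total and 4.61 ± 3.69 CPM in wt LSK (SD, n = 3 each), and the sorted fractions did not differ beyond their spread. Id2 averaged 111 ± 19.7 CPM in B220 HIGH, 65.7 ± 33.4 CPM in iMLL-ENL total, 24.5 ± 7.97 CPM in B220 LOW and 13.5 ± 7.51 CPM in wt LSK, and the last pair overlapped. Id3 averaged 9.25 ± 2.74 CPM in B220 HIGH, 2.33 ± 3.18 CPM in B220 LOW, 0.192 ± 0.178 CPM in iMLL-ENL total and 4.08 ± 4.46 CPM in wt LSK, and its libraries in wt LSK overlapped those of both sorted groups. Both sorted fractions had more Id1 than every unsorted leukemic library, and whether the sort or the separate tables lie behind it cannot be told apart.

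Lyl1 averaged 142 ± 15.1 CPM in B220 LOW, 118 ± 23.4 CPM in iMLL-ENL total, 83.8 ± 31.1 CPM in B220 HIGH and 51.7 ± 14.1 CPM in wt LSK (SD, n = 3 each), and each neighbouring pair in this order overlapped within its spread. Tcf3 averaged 28.4 ± 4.87 CPM in iMLL-ENL total, 43.8 ± 5.82 CPM in B220 HIGH, 56.9 ± 17.9 CPM in B220 LOW and 48.0 ± 9.88 CPM in wt LSK, so the sorted fractions stood at the wt LSK level. Tcf12 averaged 107 ± 20.7 CPM in iMLL-ENL total, 109 ± 15.3 CPM in B220 HIGH, 119 ± 25.3 CPM in B220 LOW and 203 ± 5.52 CPM in wt LSK, and the leukemic groups did not differ beyond their spread. Mef2c averaged 120 ± 128 CPM in iMLL-ENL total, 75.1 ± 47.3 CPM in B220 HIGH, 31.1 ± 25.6 CPM in B220 LOW and 693 ± 38.4 CPM in wt LSK. Every one of the 9 leukemic libraries was below every wt LSK library for Tal1, Tcf12, Mef2c and, narrowly, Tcf4 (highest leukemic library 331 CPM, lowest wt LSK library 334 CPM). The share of all genes for which this holds was not counted, so it is not read as a trait of these members. With iMLL-ENL total alone against wt LSK, 29.5% of the genes tested were lower without overlap.

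For each member the most similar genes were those with the smallest root mean square difference in log2(CPM + 0.5) over the 12 libraries, after centring each gene on its mean, among 9322 genes. Tal1 was nearest to Car2, a carbonic anhydrase gene (0.86, against a range of 8.41 for Tal1 itself), and to Tmem176b (1.05). Id2 was nearest to Tulp4 (0.46, range of Id2 4.12) and to Plin2, a lipid droplet gene (0.48). Id1 was nearest to Pmaip1, the gene of the cell death protein NOXA (0.58, range of Id1 6.67), and to Lgals1 (0.67), and Id3 had no close match, with Cd274, the gene of PD-L1, at 1.01 and Tuba1a at 1.06. Tcf12 was nearest to Eif2ak4 (0.11) and Parp1 (0.15), Tcf3 to Elp2 (0.18) and Rbbp7 (0.19), and Tcf4 to Rnf44 (0.28) and Cd48 (0.29). Lyl1 was nearest to Limd2 (0.23) and Echs1 (0.24), Lmo2 to 5530601H04Rik (0.19) and Srsf7 (0.20), and Mef2c to Maml2 (0.79) and Nfatc2 (0.87). Members with a narrow range have many near genes, so these distances are not ranked between members.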

How the data were processed

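RNA was sequenced from 12 libraries. The authors deposited raw counts of reads per gene for 24028 NCBI gene IDs in each of 2 tables, per the file headers, along with a width per gene. Build GRCm38 (mm10) and edgeR appear in the submitters' processing notes. The sources used here do not name the aligner or read counter. The normalized tables were not used here. Symbols came from RefSeq GRCm38.p6 (23968 IDs matched, 60 did not), exon overlaps from GENCODE on GRCm38. Per the labels' protocols the kit was unstranded.

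Each comparison was fitted within its table over all genes with edgeR 4.0.16 in R 4.3.3: TMM factors, filterByExpr with a minimum count of 10, robust quasi-likelihood F test, two-sided, Benjamini-Hochberg adjustment, calls at an adjusted p under 0.05. The SE is the log2 change over the square root of F. DESeq2 1.42.0, limma-voom (limma 3.58.1), other scalings, no filter, a fold threshold of 2, a replicate block and leaving out each library were alternatives. The test was tried on simulated data first, in which few genes were changed. At the settings of iMLL-ENL total against wt LSK it recovered 9.09% of 2-fold and 67.7% of 4-fold changes. For B220 HIGH against B220 LOW it recovered 2.99% of 2-fold and 39.1% of 4-fold changes. A gene that did not pass is thus not shown to be unchanged. For B220 HIGH and B220 LOW, libraries with one number deviated together (r = 0.476, 0.203 and 0.355 over 10516 genes, each over 0.1). The main fit did not pair them. They were treated as pairs only in the fit with the replicate block, on that ground alone, since the labels are silent.

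The members, lists, tests and the rule for named genes were chosen with earlier results of these data known. The rule took the 10 members, up to 3 called genes per list and comparison by smallest p, Ptprc, Kit and Ly6a, the 2 most similar genes per member, and marker sums; genes outside it were named after their values were seen. Some genes the rule named are not reported here. Ly6g was not in the tables. RefSeq promoter windows were found for 7 of 10 members and not for Id1, Tcf4 and Lmo2.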

Additional observations from a re-analysis of the deposited data

How the results depend on the processing

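Leaving out 1 library gave 2636 to 4528 genes called in iMLL-ENL total against wt LSK (4221 with all; 2636 without wt LSK replicate 3 and 2658 without wt LSK replicate 1) and 3 to 6 members called (6 with all; 3 without wt LSK replicate 1). In B220 HIGH against B220 LOW it gave 0 to 96 genes (96 without B220 HIGH replicate 1, 3 without B220 LOW replicate 1, 0 with all) and 0 to 1 member, Id2 without B220 HIGH replicate 1. Against a fold change of at least 2, 2047 genes and 2 members, Id2 and Tal1, were called in the first comparison. In the second, DESeq2 called 302 genes, no filter 22 and the replicate block 103, each with 1 member, Id2; the block changed no other member's call there.

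In the first comparison the replicate numbers do not pair the libraries (correlations of 0.0588, 0.283 and -0.0241). The replicate block gave 4117 genes, with Id1 at adjusted p = 0.0605, over the threshold. The signs of Id1, Tcf3 and Tcf12 in B220 HIGH against B220 LOW turned in some fits, none of them called: Id1 had -0.026 with limma-voom, -0.0036 with the replicate block and -0.12 to 0.31 over the 6 fits without 1 library, below 0 in 4 of them; Tcf3 had -0.54 to 0.016 over these fits, above 0 without B220 LOW replicate 3, and Tcf12 -0.15 to 0.015, above 0 without B220 LOW replicate 1. Without division by width the ratio of summed E protein to summed Id level averaged 4.18 in iMLL-ENL total, 41.4 in wt LSK, 2.13 in B220 HIGH and 3.46 in B220 LOW, against 0.625, 6.49, 0.323 and 0.510 per kilobase, so its side of 1 depends on the width, and the order of the groups does not. Library totals in place of TMM moved the median log2 change of all genes to -0.10 in the first comparison and changed no member's call. Id3, Tal1 in the leukemic groups and Gata1 rest on few counts.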
